A study of Sus scrofa with 20 samples.

Results

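The genes of MHC class I antigen presentation were examined in testis and liver of boars with low or high levels of androstenone, a testicular steroid that accumulates in fat and contributes to boar taint. The members were SLA-1, SLA-2, SLA-3, SLA-6, SLA-7, SLA-8, B2M, TAP1 and ERAP2, found by matching the reference transcript IDs of the count files to pig gene symbols. Of the 9 symbols, 8 were found, through 9 of the 21755 reference IDs, and no ID matched SLA-1. SLA-3 had a pair of IDs, NM_001097427.1 and AB105388.1, and the second took its name from the study's own annotation. The other IDs were NM_001113702.1 for SLA-2, NM_001113704.1 for SLA-6, NM_213768.1 for SLA-7, NM_001113703.1 for SLA-8, NM_213978.1 for B2M, NM_001044581.1 for TAP1 and XM_003123801.1 for ERAP2. A pair of these genes was picked from these same samples: ERAP2 for its lower values in liver of the high androstenone group, and SLA-3 for its difference between the androstenone groups in testis. Those differences are therefore described and not tested.

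There were 20 samples in 4 groups of 5, namely testis with low androstenone, testis with high androstenone, liver with low androstenone and liver with high androstenone. Per the study's methods both tissues came from 10 boars, but the labels do not tie a testis sample to its liver, so the tissues were compared without pairing. The labels give an age of 116 days for every sample, and the study's methods give this as the average age at slaughter. The labels name no treatment, and the animals came from a cross of Duroc with F2 pigs of Leicoma, German Landrace and Large White origin. Each sample was bulk RNA of a whole tissue piece, so fewer cells of a type and less RNA per cell cannot be told apart. The testis libraries held 6161397 to 15975386 counts and the liver libraries 5796973 to 26783002. Levels below are given as CPM, the counts of an ID per 1000000 counts of the library, scaled by trimmed mean of M-values (TMM) factors computed over the 20 samples. A value of 3 counts in a sample, used as the detection floor, corresponded to at most 0.487 CPM in testis and 0.518 CPM in liver. The markers ALB and INSL3 followed the tissue labels. ALB, the main plasma protein made by hepatocytes, ran from 77687 to 226308 CPM in liver and from 0.506 to 31.3 CPM in testis. INSL3, a hormone of Leydig cells, ran from 570 to 2981 CPM in testis and from 0 to 4.15 CPM in liver. Not every marker list set the tissues apart. The sum of 4 Sertoli cell markers ran from 4029 to 21792 CPM in testis and from 2363 to 23243 CPM in liver.

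Class I molecules show short peptides from inside the cell to CD8 T cells. The peptides are cut by the proteasome, pumped into the endoplasmic reticulum by the transporter formed by TAP1 and TAP2, trimmed there by the aminopeptidases ERAP1 and ERAP2, and loaded onto a heavy chain paired with beta-2-microglobulin, the product of B2M. In the pig the heavy chains are swine leukocyte antigens (SLA): SLA-1, SLA-2 and SLA-3 are the classical, highly polymorphic chains, and SLA-6, SLA-7 and SLA-8 are the non-classical ones. Interferons raise the transcription of most genes of this pathway, and germ cells of the testis are known for low class I levels.

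In the RefSeq table of assembly Sscrofa11.1, SLA-8, SLA-7 and SLA-6 are direct neighbours, TAP1 lies between the immunoproteasome genes PSMB8 and PSMB9, and ERAP2 is next to LNPEP. The count files were made on an older assembly, so no positions are given. B2M has 2 entries in that table. The SLA heavy chains are near-identical in sequence and vary between animals, so a read from one chain can count under another, and the level of each SLA ID is uncertain to that extent. For this reason the counts of the 6 SLA IDs were also added up in each sample, and this total is called the class I sum.

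The plot of CPM by group shows the level of every ID in every sample.

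**Figure D1:**
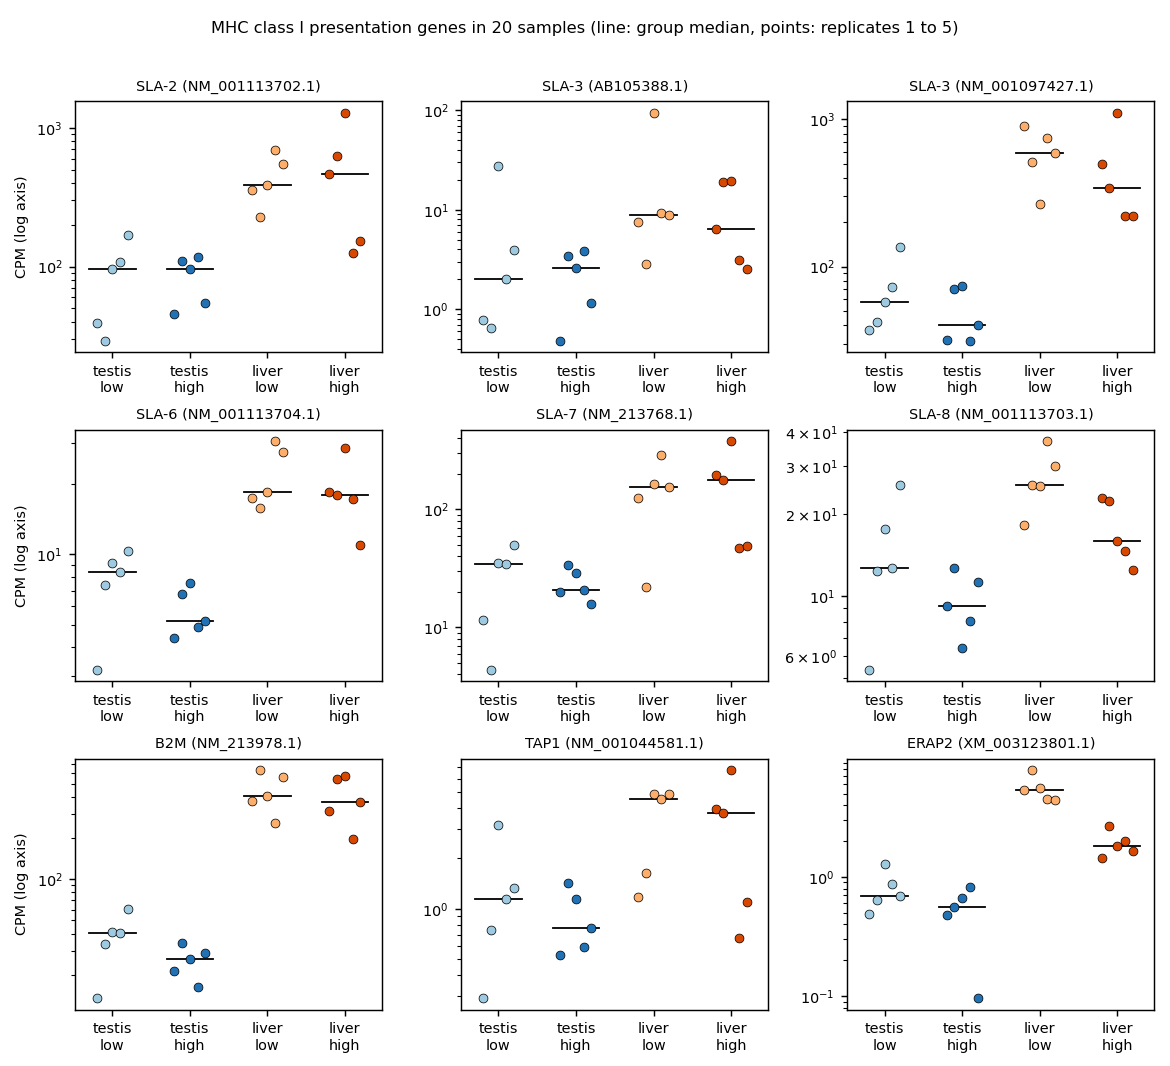
CPM on a log axis (vertical) of the 9 reference IDs in the 4 groups of 5 samples; each point is a sample, ordered by replicate number within its group, and the line is the group median. Liver lies above testis for SLA-3 (NM_001097427.1), SLA-6, B2M and ERAP2 with no overlap. The low and high androstenone groups separate only for ERAP2 in liver, the values for which that gene was chosen.

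All 9 IDs were lower in testis than in liver. Each passed the edgeR quasi-likelihood test across all IDs (Benjamini-Hochberg adjusted p under 0.05 and a fold of at least 1.5), and 32.2% of the 19065 IDs tested were called lower in testis. The median log2 fold change of the members was -2.30, against 0.31 over all IDs tested. Every liver sample was above every testis sample for 4 of the 9 IDs, a pattern shown by 15.3% of all IDs.

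The light chain had the largest difference between the tissues among the members. In testis B2M measured 13.4, 33.3, 41.1, 40.3 and 60.5 CPM in low replicates 1 to 5 and 21.2, 34.1, 26.1, 16.2 and 29.0 CPM in high replicates 1 to 5. In liver it measured 378, 632, 405, 258 and 565 CPM in the low group and 318, 539.8, 571, 199 and 371 CPM in the high group. The lowest liver sample was thus more than 3 times the highest testis sample. The log2 fold change of testis over liver was -3.77 ± 0.27 (SE, n = 10 per tissue, edgeR adjusted p = 2.6e-12). B2M also stood lower against the heavy chains in testis, with 8.68 to 34.9 counts (median 16.1) per 100 counts of the class I sum, than in liver, with 14.3 to 83.0 (median 42.0). The ranges overlapped, and this ratio does not depend on library scaling.

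The classical chains SLA-2 and SLA-3 were lower in testis through all 3 of their IDs. SLA-3 (NM_001097427.1) ran from 31.3 to 136 CPM (median 49.5) in testis and from 219 to 1108 CPM (median 505) in liver, with a log2 fold change of -3.20 ± 0.34 (SE, n = 10 per tissue, edgeR adjusted p = 3.6e-09). SLA-2 ran from 29.1 to 169 CPM (median 96.4) in testis and from 125 to 1283 CPM (median 424) in liver, with a log2 fold change of -2.48 ± 0.39 (SE, n = 10 per tissue, edgeR adjusted p = 2.4e-06). For SLA-2, 8 of the 10 liver samples were above the highest testis sample, and the remaining ones were replicates 4 and 5 of the high group. The second SLA-3 ID, AB105388.1, had a median of 2.31 CPM in testis and 8.19 CPM in liver and a log2 fold change of -1.97 ± 0.66 (SE, n = 10 per tissue, edgeR adjusted p = 0.0086). That call was lost without replicate 3 of the liver low group (-1.07, edgeR adjusted p = 0.085).

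The non-classical chains differed by less, apart from SLA-7. SLA-7 ran from 4.38 to 49.9 CPM (median 24.7) in testis and from 21.9 to 378 CPM (median 159) in liver (log2 fold change -2.66 ± 0.44, SE, n = 10 per tissue, edgeR adjusted p = 5.4e-06). SLA-6 ran from 3.21 to 10.3 CPM (median 7.08) in testis and from 10.997 to 30.5 CPM (median 18.2) in liver (log2 fold change -1.60 ± 0.21, SE, n = 10 per tissue, edgeR adjusted p = 2.0e-07). SLA-8 had the smallest difference of the members, from 5.35 to 25.5 CPM (median 11.8) in testis and from 12.5 to 36.9 CPM (median 22.6) in liver (log2 fold change -0.88 ± 0.22, SE, n = 10 per tissue, edgeR adjusted p = 7.8e-04). Only 3 of the 10 liver samples exceeded the highest testis sample for SLA-8. The class I sum ran from 95.5 to 395 CPM in testis and from 428 to 2833 CPM in liver without overlap, a log2 fold change of -2.69 ± 0.34 (SE, n = 10 per tissue, edgeR adjusted p = 9.0e-08).

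TAP1 and ERAP2, which supply the peptides, were lower in testis as well, both from few counts. TAP1 ran from 0.292 to 3.18 CPM (median 0.958) in testis and from 0.673 to 6.74 CPM (median 3.86) in liver, with between 3 and 93 counts in a sample. Its log2 fold change was -1.57 ± 0.39 (SE, n = 10 per tissue, edgeR adjusted p = 8.6e-04), and 6 of the 10 liver samples were above the highest testis sample. ERAP2 ran from 0.096 to 1.28 CPM (median 0.656) in testis and from 1.45 to 7.92 CPM (median 3.56) in liver, without overlap. Its log2 fold change was -2.30 ± 0.26 (SE, n = 10 per tissue, edgeR adjusted p = 1.2e-08).

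The tissue differences depend on how libraries were scaled. With library size alone, the median over all IDs moved from 0.31 to 1.28, the share of called IDs that were higher in testis moved from 57.4% (8293 of 14436) to 76.0% (11348 of 14925), and 6 of the 9 members were called. SLA-8 then changed sign (0.06), AB105388.1 (-0.98, edgeR adjusted p = 0.155) and TAP1 (-0.55, edgeR adjusted p = 0.190) were no longer called, and only B2M kept the tissues apart without overlap. Relative to the median of all IDs, the members lay between 1.19 and 4.08 log2 units below it with TMM factors. A change of scaling moves all IDs by nearly the same amount. The position relative to this median therefore stayed almost the same under each scaling and cannot test the effect of scaling.

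The other genes of the pathway, taken from lists chosen by function, did not all share this direction. Over all 19065 IDs tested, 6143 (32.2%) were called lower in testis and 8293 higher, and the counts of each list below stand beside these. Of the proteasome genes, 12 of 16 had an ID, and 4 were called lower in testis, 4 higher and 4 neither. These counts alone do not set the list apart from all IDs. The 4 lower ones were PSMB8 (log2 fold change -2.65) and PSMB9 (-2.41), the interferon-induced catalytic subunits, and PSME1 (-2.09) and PSME2 (-3.02), which form the interferon-induced activator of the proteasome. The 4 higher ones were PSMA1 (0.77), PSMA6 (2.47) and PSMB6 (0.60), subunits of the proteasome itself, and PSME3 (2.25), a nuclear activator. PSME1, PSMA1, PSMB6 and PSME3 were added to the named genes after their values were seen. PSMB8 ran from 0.639 to 4.06 CPM in testis and from 4.49 to 16.9 CPM in liver, and PSMA6 from 496 to 1068 CPM in testis and from 75.4 to 260 CPM in liver, both without overlap. With library size alone 4 of the 12 were still lower and 7 were higher, against 3577 lower and 11348 higher of all 19065 IDs.

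Of 12 genes of peptide loading and trimming outside the members, 6 had an ID, and TAP2, TAPBP and ERAP1 were among those without one. The cytosolic peptidase THOP1 was lower in testis (log2 fold change -0.93), the aminopeptidase LNPEP was higher (0.83), and 4 were not called. CALR, the chaperone that holds the heavy chain for loading, ran from 399 to 698 CPM in testis and from 260 to 746 CPM in liver (log2 fold change 0.09 ± 0.19, SE, n = 10 per tissue, edgeR adjusted p = 0.66). With library size alone 4 of the 6 were called higher in testis and none lower: CALR (1.06), PDIA3 (1.197), NPEPPS (1.03) and LNPEP (1.83), while THOP1 turned to 0.0156. The median of the list moved from 0.07 to 1.04.

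Genes that control or accompany class I transcription were mostly lower in testis. Of 10 class I regulators with an ID, 9 were called lower, with STAT2 (log2 fold change -3.68), IRF1 (-3.55), NFKB1 (-2.14) and IRF9 (-1.92) among them, and RFX5, a subunit of the factor that binds class I and class II promoters, was higher (1.56). NLRC5, the class I transactivator, had no ID. Of 10 interferon response genes 9 were lower in testis, with OAS2 (-4.02), CXCL10 (-3.80), RSAD2 (-3.34), IFIT2 (-2.89) and MX1 (-2.58) among them. With library size alone 5 of the 10 regulators and 7 of the 10 interferon response genes were called lower, and RELA changed sign. Of the class I-like molecules, FCGRT, which also pairs with B2M and carries immunoglobulin G, was lower in testis (-4.08), as was CD1D (-1.26), and ULBP1 was called higher (2.36) from values of 0 to 0.238 CPM in testis and 0 to 0.0966 CPM in liver. The call of CD1D was lost with library size alone (-0.24, edgeR adjusted p = 0.63).

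**Figure D2:**
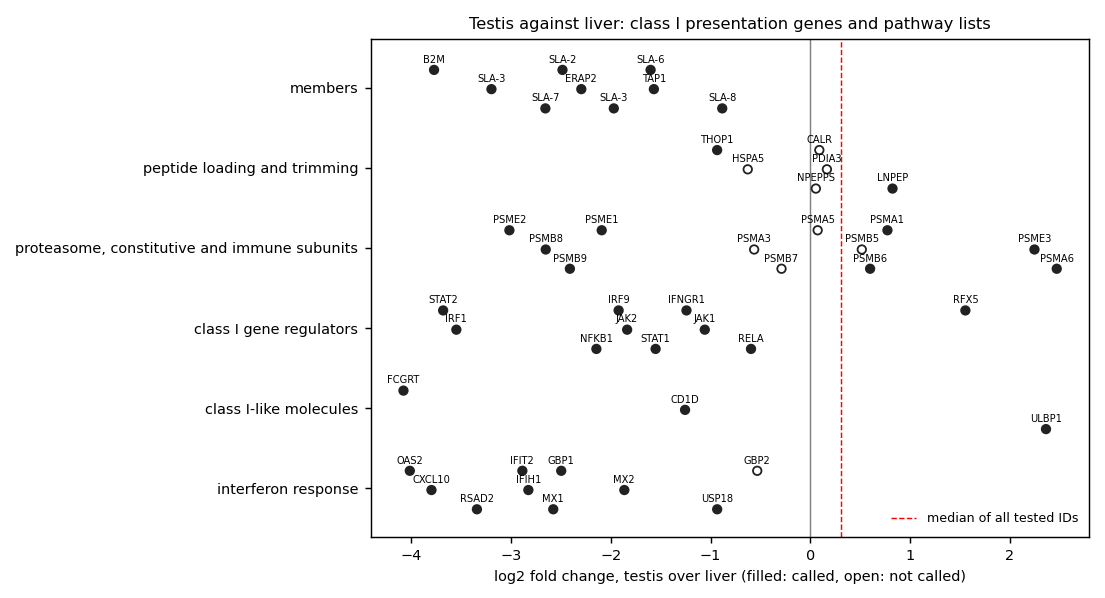
Log2 fold change of testis over liver (horizontal) for the 9 member IDs and for the genes of 5 pathway lists (rows); each point is a gene, filled where it was called and open where it was not, and the dashed line is the median of all IDs tested (0.31). All members and 9 of 10 interferon response genes lie at or below -0.88, while the proteasome genes spread from -3.02 to 2.47.

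Cells other than the parenchyma also differ between the tissues. Of 13 markers of T, NK and B cells, 11 were lower in testis and 2 were not called, and their summed level was 11.02 to 28.5 CPM in testis and 57.4 to 128 CPM in liver. PTPRC, the pan-leukocyte surface phosphatase, had a log2 fold change of -3.56. Of 5 macrophage markers 4 were lower in testis, with summed levels of 5.74 to 24.1 CPM in testis and 406 to 701 CPM in liver, and 2 of 2 endothelial markers were lower. With library size alone 8 of the 13 leukocyte markers were lower and 2 were higher, CD4 having changed sign, and 1 of the 2 endothelial markers was called lower. Their part in the class I difference was not tested.

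Between the androstenone groups none of the member IDs tested was called in either tissue. In testis 0% of 18340 IDs and in liver 0% of 15855 IDs passed the edgeR quasi-likelihood test, with 1741 and 465 at an unadjusted p under 0.05. DESeq2 called 120 and 7 IDs and a likelihood ratio test called 225 and 45, and none of the 7 member IDs tested in testis or the 8 tested in liver was among them. The exact permutation test of 5 against 5 samples cannot go below p = 0.0079, and 16 such tests were run (two-sided, unadjusted).

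Leaving aside the SLA-3 IDs, which were chosen on this contrast, the 7 other estimates in testis were below 0, as were 52.0% of all IDs, with a median log2 fold change of -0.59 for these members and -0.02 for all IDs. The members share their samples and, for the SLA chains, their reads, so the 7 estimates are not independent. SLA-8 measured 5.35, 12.3, 17.6, 12.7 and 25.5 CPM in low replicates 1 to 5 and 9.21, 12.7, 6.42, 8.09 and 11.2 CPM in high replicates 1 to 5. The groups overlapped, with the lowest and the highest sample both in the low group (log2 fold change -0.64 ± 0.31, SE, n = 5 per group, edgeR adjusted p = 0.54, exact permutation p = 0.27), and the estimate was -0.35 without low replicate 5. B2M showed the same arrangement in the values given above, with low replicate 1 lowest and low replicate 5 highest (-0.59 ± 0.30, SE, n = 5 per group, edgeR adjusted p = 0.56, exact permutation p = 0.29), and its estimate also became -0.35 without low replicate 5.

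TAP1 measured 0.292, 0.748, 3.18, 1.15 and 1.33 CPM in the testis low group and 0.532, 1.43, 1.15, 0.595 and 0.768 CPM in the high group. The estimate of -0.65 ± 0.48 (SE, n = 5 per group, edgeR adjusted p = 0.68, exact permutation p = 0.59) became -0.03 without low replicate 3, the sample with the highest value. ERAP2 measured 0.486, 0.641, 1.28, 0.875 and 0.696 CPM in the testis low group and 0.479, 0.562, 0.670, 0.833 and 0.096 CPM in the high group, the last from a single count. The ERAP2 groups overlapped in testis (-0.68 ± 0.42, SE, n = 5 per group, edgeR adjusted p = 0.62, exact permutation p = 0.20), with an estimate of -0.42 without low replicate 3.

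The heavy chains in testis spread as widely within the groups as between them. The class I sum ran from 95.5 to 395 CPM in the low group (213 ± 124, SD, n = 5) and from 111 to 237 CPM in the high group (176 ± 54.4, SD, n = 5). Its log2 fold change was -0.30, and it was 0.05 without low replicate 5. The sum holds the counts of SLA-3, which was chosen on this contrast, and was not tested here. SLA-2 (-0.08, or 0.30 without low replicate 5) and SLA-7 (-0.20, or 0.14 without it) changed sign in the same way, while SLA-6 stayed below 0 (-0.45) with each sample left out. For SLA-3 (NM_001097427.1) the estimate was -0.50, and -0.08 without low replicate 5, again with no test.

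In liver the class I sum was 1420, 806, 954, 1803 and 1359 CPM in low replicates 1 to 5 and 1208, 1204, 2833, 428 and 446 CPM in high replicates 1 to 5. With TMM factors the high group held both the highest and the lowest liver samples, and the means were 1268 ± 397 and 1224 ± 978 CPM (SD, n = 5 each). With library size alone the highest liver sample was low replicate 4, at 1538 CPM. The log2 fold change was -0.02 ± 0.46 (SE, n = 5 per group, edgeR adjusted p = 0.9999, exact permutation p = 0.52), and it was -0.56 without high replicate 3. Without that sample SLA-2 moved from 0.28 to -0.32, SLA-7 from 0.18 to -0.32, TAP1 from 0.01 to -0.42, SLA-6 from -0.18 to -0.36 and SLA-3 (NM_001097427.1) from -0.29 to -0.83. SLA-6 (-0.18 ± 0.30, SE, n = 5 per group) and B2M (-0.10 ± 0.34, SE, n = 5 per group) had edgeR adjusted p = 0.9999.

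SLA-8 in liver measured 18.2, 25.6, 25.2, 36.9 and 29.9 CPM in the low group and 22.9, 22.3, 16.0, 14.6 and 12.5 CPM in the high group. All low samples but 1 were above all high samples, and low replicate 1 lay among the high ones. The log2 fold change was -0.57 ± 0.28 (SE, n = 5 per group), with an edgeR adjusted p = 0.9999 and an exact permutation p = 0.040, the lowest of the 16. It stayed between -0.69 and -0.42 with each sample left out.

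ERAP2 in liver, the value for which the gene was chosen, measured 5.43, 7.92, 5.58, 4.55 and 4.41 CPM in the low group and 1.45, 2.71, 1.81, 2.02 and 1.65 CPM in the high group. Every high sample was below every low sample, which held for 74 of the 15855 IDs (0.467%). Because ERAP2 was chosen on these values, neither the separation nor this share is a test of it. The counts behind these values ranged from 24 to 106 in the low group and from 9 to 25 in the high group. The log2 fold change was -1.48, and it lay between -1.63 and -1.33 with each sample left out. LNPEP, the related aminopeptidase encoded next to ERAP2, had a log2 fold change of -0.07 ± 0.33 in liver (SE, n = 5 per group, edgeR adjusted p = 0.9999).

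**Figure D3:**
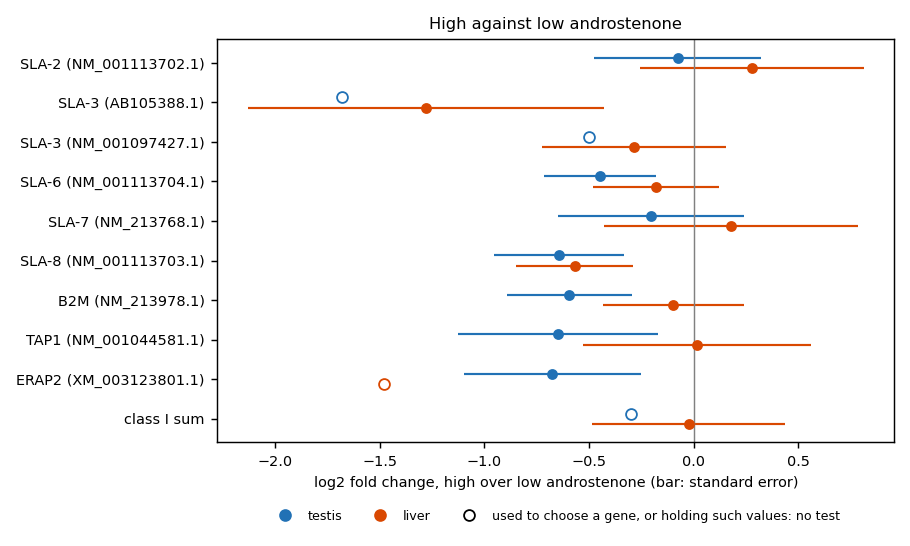
Log2 fold change of the high over the low androstenone group (horizontal) for the 9 IDs and the class I sum, in testis (blue) and liver (orange). Bars are standard errors derived from the F statistics of the edgeR fits with 5 samples per group. Open points without bars mark values that were used to choose a gene, or a sum that holds them. In liver the bars of all IDs given one cross 0 except those of AB105388.1 (-1.28) and SLA-8 (-0.57), and the open orange point of ERAP2 lies at -1.48.

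The difference between the androstenone groups was not shown to depend on the tissue. Of the 19065 IDs, 0% passed the interaction test in edgeR, with 890 at an unadjusted p under 0.05, 1 called by DESeq2 and 46 by the likelihood ratio test. Among the 6 member IDs tested, the interaction (testis minus liver) ran from -0.64 ± 0.78 (SE) for TAP1 to -0.01 ± 0.42 (SE) for SLA-8. The TAP1 value became -0.02 without testis low replicate 3. The interaction was not tested for ERAP2, SLA-3 or the class I sum.

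No gene of the pathway lists was called between the androstenone groups. In testis 8 of the 10 interferon response genes had an unadjusted p under 0.05, all adjusted p being at least 0.437 (edgeR). Their summed level was 20.9 to 152 CPM in the testis low group, highest in replicate 3, and 22.7 to 33.5 CPM in the high group. In liver it was 235 to 727 CPM in the low group, again highest in replicate 3, and 198 to 342 CPM in the high group. The 10 IDs of 4 haemoglobin genes summed to 118 to 1058 CPM in the testis low group and 51.7 to 163 CPM in the high group. Of these IDs, 10 of 10 had an unadjusted p under 0.05 in testis (edgeR). T, NK and B cell markers summed to 12.4 to 19.99 CPM in the testis low group and 11.02 to 28.5 CPM in the high group, and to 80.0 to 128 and 57.4 to 86.0 CPM in liver. In testis 7 of these 13 markers had an unadjusted p under 0.05, with a median log2 fold change of -0.90 over the 13 and -0.82 for PTPRC, and so did 2 of the 5 macrophage markers (median -0.52). In liver none of the 12 leukocyte markers tested did. Over all IDs in testis, 1741 of 18340 had an unadjusted p under 0.05. The interferon list holds MX1, MX2, IFIT2 and RSAD2 (IRG6 in the study), and the leukocyte list holds CD5 and CD244. The blood list holds HBB, HBD, HBM and HBA2, with most of its 10 IDs being HBA2 entries. The study had reported these genes for the same testis contrast, so the testis counts describe the lists and do not test them. The part of all these genes in the members' values was not tested.

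The make-up of the class I counts set a few samples apart. AB105388.1 made up 11.4% of the class I counts in replicate 3 of the testis low group (624 of 5493 counts, 95% Wilson interval 10.5 to 12.2%) and 9.92% in replicate 3 of the liver low group (645 of 6500, 9.22 to 10.7%). In the other 18 samples it made up 0.352 to 2.04%. The intervals cover counting error only. The labels give these samples the same group and number but do not state that they came from one boar.

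In CPM, AB105388.1 was 0.778, 0.641, 27.5, 2.02 and 3.92 in testis low replicates 1 to 5 and 7.45, 2.84, 94.7, 9.28 and 8.94 in liver low replicates 1 to 5. Replicate 3 stood apart in both tissues and held 78.9% of the testis low total and 76.9% of the liver low total. The liver log2 fold change of high over low was -1.28 ± 0.85 (SE, n = 5 per group, edgeR adjusted p = 0.9999, exact permutation p = 0.56) and turned to 0.60 without low replicate 3. In testis the estimate of -1.68, given without a test, turned to 0.22 without low replicate 3.

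SLA-7 showed the reverse in replicate 2 of the low group. It made up 4.59% of the class I counts there in testis (41 of 894 counts, 95% Wilson interval 3.40 to 6.16%) and 2.72% in liver (293 of 10783, 2.43 to 3.04%). In the other samples the share was 11.05 to 18.0% in testis and 8.87 to 17.1% in liver. In the same testis sample SLA-8 (12.9%), SLA-6 (7.72%) and SLA-3 (NM_001097427.1, 43.7%) had their highest testis shares, and SLA-2 made up 30.4%, its lowest testis share. The levels of SLA-8 (12.3 CPM), SLA-6 (7.37 CPM) and NM_001097427.1 (41.8 CPM) were within the range of the other testis samples. Those of SLA-2 (29.1 CPM) and SLA-7 (4.38 CPM) were the lowest in testis. In the liver sample SLA-3 (NM_001097427.1) made up 63.5%, its highest liver share, at a level of 512 CPM that was within the range of the other liver samples. SLA-2 reached 63.2% in replicate 4 of the testis high group, against 30.4 to 46.3% in the other testis samples.

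**Figure D4:**
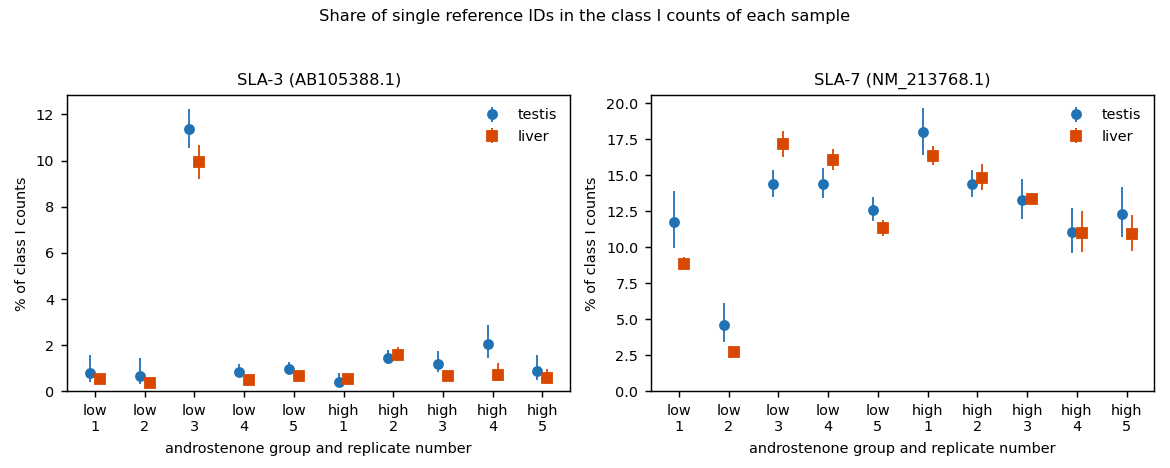
Share of the class I counts (vertical, percent) taken by SLA-3 (AB105388.1, left) and SLA-7 (right) in each sample, by androstenone group and replicate number, in testis (circles) and liver (squares); bars are 95% Wilson intervals. AB105388.1 stands apart at 11.4% and 9.92% in low replicate 3, and SLA-7 is lowest at 4.59% and 2.72% in low replicate 2.

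The genes whose levels were most like the class I sum were found over the 20 samples, after the mean of each tissue was taken away, among 3688 other symbols. Their Pearson correlations were 0.917 for SLA-5, 0.867 for GLUL, 0.861 for RNF4, 0.855 for TUBB4B and 0.848 for CDC37, against a median of 0.0819 over all IDs searched. SLA-5 is itself a class I heavy chain gene and can share reads with the SLA members, and GLUL encodes glutamine synthetase. Among the members that are not heavy chains, the correlation with the class I sum was 0.750 for TAP1 and 0.520 for B2M. For the other genes followed by name it was 0.813 for PSMB8, 0.753 for PSMB9, 0.352 for MX1 and -0.0052 for PTPRC. These correlations are descriptions over samples that share library depth and scaling.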

How the data were processed

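Per the labels and the study's methods, RNA of each tissue was converted to cDNA with the SMART kit and sequenced as single reads on 1 flow-cell, with base calling in CASAVA 1.7 and alignment with BWA to RefSeq and UniGene transcripts of Sscrofa 9.2 (SAMtools is also listed). The treatment of reads matching several transcripts is not given in the sources used here. The deposited values are raw counts per transcript ID, with 21785 lines in each of the 20 files. The 10 IDs listed 4 times were used once. Total counts were 5796973 to 26783002 per sample, which for IDs near 3 counts leaves fold changes imprecise.

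Symbols came from a RefSeq accession table and the study's annotation (6666 of 21755 IDs). An ID was kept if its counts summed to at least 10 over the samples of a fit, and all 9 member IDs passed in both tissues. Tests used edgeR 4.0.16 quasi-likelihood fits (R 4.3.3) with TMM factors and Benjamini-Hochberg adjustment over all IDs tested, calling an ID when the adjusted p was below 0.05 and the fold 1.5 or more (interaction: adjusted p only). High and low were compared within each tissue, and testis and liver as means of 2 groups each. Exact permutation tests used log2(CPM + 0.5) (scipy 1.17.1). Alternatives were other scalings and filters, DESeq2 1.42.0 (local fit), a likelihood ratio test with trended dispersion, all groups in 1 fit, summed SLA IDs, a replicate block and leaving out each sample. The tests were checked on simulated counts, with 200 IDs of a mean count of at least 10 changed by a log2 fold change of 2. Of these, 96.5% were called for high against low in testis, 75.5% in liver and 99.0% between tissues. Smaller changes and lower mean counts were not simulated.

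The members and the gene lists were chosen with earlier results of these data known. Named genes are all member IDs, up to 4 genes per list with the largest tissue difference among those called, 9 genes fixed by name, and the 5 most like the class I sum. Sequences and positions are not reported here.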

Additional observations from a re-analysis of the deposited data

Results flagged for a closer look

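In 64 groups of 5 samples (levels and class I shares of the SLA, B2M, TAP1 and ERAP2 IDs), 9 groups had a highest or lowest sample far from the rest by Dixon's criterion. Chance gives about 1 in 20 where values are independent and normally distributed. In CPM these were AB105388.1 in testis low replicate 3 (27.5, the next 3.92) and in liver low replicate 3 (94.7, the next 9.28). Among the shares of the class I counts, AB105388.1 stood apart in testis low replicate 3 (11.4%, the next 0.993%), liver low replicate 3 (9.92%, the next 0.658%) and liver high replicate 2 (1.59%, the next 0.735%). Testis low replicate 2 stood apart in 3 shares, with SLA-6 at 7.72% (the next 3.79%), SLA-8 at 12.9% (the next 7.26%) and SLA-7 at 4.59% (the next 11.8%). SLA-2 stood apart in testis high replicate 4 at 63.2% (the next 46.3%). The shares of 1 sample add up to the whole, so these values are not independent of each other. The 9 flags can therefore not be weighed against the rate of 1 in 20. SLA-3 was chosen on its testis difference, so the testis flags of AB105388.1 are not independent of that choice.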

How the results depend on the processing

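The counts of called IDs between androstenone groups depended on the test. DESeq2 called 120 in testis, 7 in liver and 1 for the interaction, and the likelihood ratio test called 225, 45 and 46, against 0 in each by the quasi-likelihood test. Leaving out single samples gave 0 to 2 calls in testis (2 without low replicate 5).

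Of the log2 values between testis and liver, library size alone turned SLA-8 to 0.0639 and ended the calls of AB105388.1 (-0.98) and TAP1 (-0.55), and AB105388.1 ranged from -2.92 to -1.07 over the samples left out. Between the androstenone groups in liver, TAP1 turned to -0.10 with library size alone, -0.00461 with at least 100 counts and -0.0239 with DESeq2, and SLA-7 to -0.00882 with library size alone. The SLA-8 interaction turned to 0.0029 with RLE factors, 0.0049 with library size alone and 0.00257 with DESeq2. None of these values between androstenone groups or of the interaction was called. The causes of the changes were not tested.

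With single samples left out, the liver values ranged from -0.23 to 0.0656 for B2M, -0.32 to 0.52 for SLA-2, -1.64 to 0.60 for AB105388.1, -0.36 to -0.02 for SLA-6, -0.32 to 0.56 for SLA-7, -0.42 to 0.25 for TAP1 and -0.56 to 0.19 for the class I sum. The testis values ranged from -0.30 to 0.30 for SLA-2, -0.47 to 0.14 for SLA-7, -0.49 to 0.0510 for the class I sum, -1.96 to 0.22 for AB105388.1 and -0.68 to -0.08 for NM_001097427.1. The interaction ranged from -0.57 to 0.31 for SLA-2, -0.39 to 0.00741 for SLA-6, -0.73 to 0.17 for SLA-7, -0.91 to -0.02 for TAP1, -0.22 to 0.27 for SLA-8, -2.18 to 1.51 for AB105388.1 and -0.45 to 0.34 for the class I sum.

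The replicate numbers were not taken to pair samples: same-numbered testis and liver samples of a group deviated together over 10639 IDs with a mean correlation of 0.144 (-0.0556 to 0.436, 7 of 10 over 0.1), and 4 samples correlated best with their own number. The comparison of members between same-numbered samples was therefore not made, nor were its alternatives. With the replicate number as a block, 0 IDs were called between androstenone groups in either tissue and for the interaction. Between tissues 14201 were called, against 14436 without the block. Within a tissue the block joined each low sample to a high sample from a different boar, so that pairing is arbitrary. The mean correlation of these pairs was 0.0747 in testis and 0.0294 in liver. In testis 0 samples, and in liver 1, correlated best with their own number. The block turned SLA-2 to 0.0981 and SLA-7 to 0.0807 in testis and SLA-2 to -0.0239 and TAP1 to -0.0209 in liver, moved AB105388.1 in testis to -0.65, and turned the interaction to 0.23 for SLA-2, 0.11 for SLA-8, 0.0833 for SLA-7 and 0.22 for the class I sum.

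Without testis low replicate 3 and liver high replicate 3 together, an alternative chosen after seeing the data, the list counts between tissues moved by at most 1 gene. Depth limits ERAP2 and TAP1 most, whose lowest samples held 1 and 3 counts.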
